A study of Mus musculus with 6 samples.

Results

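Transcripts of 10 genes that the tumour suppressor p53 switches on and whose products promote cell death were followed in the jejunum of irradiated mice. They were the BH3-only genes Bbc3 and Pmaip1, the pore-forming gene Bax, the death receptor genes Fas and Tnfrsf10b, the apoptosome gene Apaf1, and Perp, Aen, Trp53inp1 and Ei24. The genes were listed by name, and every non-control probe that the array files gave under those names was taken, which made 12 probes of 10 genes among 55681 non-control probes with 36163 different names in the gene name column. All 12 were well above background on all 6 arrays and were therefore tested, together with 36084 other probes, in a table of 36096. The animals were male C57BL/6J mice, and the labels gave no age. In the treated group 3 mice received VND3207, a compound known here by its code name only, into the stomach at 100 mg/kg, and in the control group 3 mice received the vehicle. Every mouse of both groups was then exposed to 9 Gy of radiation, 0.5 h after dosing, and the jejunum was removed 6 h after the exposure. Whole tissue RNA was labelled with Cy3 and hybridised to 1-colour arrays with 60-base probes. Unirradiated jejunum was not analysed here, so the values compare VND3207 with vehicle after radiation and do not measure the response to radiation.

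Radiation breaks DNA, the break signal stabilises p53, and p53 then raises transcription of genes that arrest the cell cycle as well as of genes that kill the cell. The killing genes act at several levels. BH3-only proteins neutralise the protective members of the Bcl2 family, Bax then perforates the mitochondrial membrane, and Apaf1 assembles with released cytochrome c into the apoptosome that activates caspases. Death receptors pass a parallel signal from the cell surface. In the small intestine the dividing cells at the base of the crypts are known for p53-dependent apoptosis within hours of irradiation, with the Bbc3 product Puma as a main mediator.

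With VND3207, Pmaip1 and Ei24 were higher, by 1.53-fold and 1.36-fold, and they were the 2 of 10 genes that passed the test (limma, Benjamini-Hochberg adjusted p = 0.0396 and 0.0239). No member was called lower. In 6 of the 10 genes (Bbc3, Pmaip1, Perp, Apaf1, Trp53inp1 and Ei24) all 3 VND3207 arrays lay above all 3 vehicle arrays on the brightest probe. In none did they all lie below on that probe. On the other probe of Trp53inp1 they all lay below, at a difference of -0.29, so this gene has no single direction. The shares that follow count probes, not genes. Among all probes tested, 0.925% were called higher, 14.6% lower and 15.5% in either direction. The VND3207 values lay wholly above the vehicle values in 9.41% of all probes and wholly below in 24.9%. The median difference of the 10 genes was 0.20 on the log2 scale, against -0.06 over all probes. The genes were chosen with earlier results of these data known, so these comparisons with all probes are descriptions only. Most member probes were bright, whereas the shares and the median over all probes include dim probes, which leaned lower. In the 3 brightest of 10 classes of probes by mean level the medians were 0.05, 0.03 and -0.06. The share lying wholly above or below is not given for bright probes alone. Differences are VND3207 minus vehicle, on log2 of the processed signal after subtraction of each array's 75th percentile, and levels are given on the same scale. An exact two-sided permutation test of 3 mice against 3 cannot give a p below 0.1, so the calls rest on limma, which borrows the spread of all probes.

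Facts of the arrays bear on every value below. All vehicle arrays were on slide 1 and scan 1 and all VND3207 arrays on slide 2 and scan 2, so slide and treatment cannot be told apart. The scanner software marked 66.7% to 70.0% of non-control spots as well above background in the vehicle group and 58.8% to 61.4% in the VND3207 group. Calls leaned to lower values, with 5.97% of them higher, a share of 22.3% after quantile normalization and 32.9% after a smooth fit to each array that took out trends with the place of a spot, its brightness and its GC content (called the trend fit here). Quantile normalization moved the median of all probes from -0.06 to 0.05, and the members' median stood 0.26 above that of all probes before it and 0.21 after it. Jejunal epithelium genes were bright on every array, with Fabp1 at a mean of 8.87 in the vehicle group and 8.05 with VND3207. Of the 12 genes that define this epithelium, 6 were called lower, among them Fabp1 at -0.82 ± 0.13 (SE), Anpep at -0.77 ± 0.13 and Fabp2 at -0.58 ± 0.12. Of 5 Paneth cell genes 3 were called lower (Lyz1 at -0.65, Defa26 at -0.94 and Itln1 at -0.41). The 2 others lay above 0 and did not pass (Mmp7 at 0.08 and Ang4 at 0.19). The other probes of Itln1 were at -0.34 and -0.20 and did not pass. Its call was lost without any of the 6 arrays (limma adjusted p of 0.066 to 0.132). After quantile normalization Defa26 passed at -0.69 with an adjusted p of 0.0451, while Lyz1 was at -0.29 with an adjusted p of 0.123 and Itln1 at 0.01. Fabp1 was then at -0.39 with an adjusted p of 0.0662, Anpep at -0.35 with an adjusted p of 0.0689 and Fabp2 at -0.13 with an adjusted p of 0.392. None of the 10 crypt and proliferation genes, 6 goblet cell genes or 5 ileum and colon genes passed. In the T cell list 7 of 8 genes were above 0, with a median of 0.20, and the 1 gene that passed, Cd4 at -1.18, went against the rest. In the macrophage and neutrophil list 5 of 7 were above 0, with a median of 0.15, and the 1 that passed, Itgam at -0.75, also went against most of them. Its 2 other probes were at 0.55 and -0.47, and its call was lost without any of the 6 arrays (limma adjusted p of 0.0592 to 0.124) and after quantile normalization (0.0549). None of 6 B cell genes passed. Smooth muscle genes were lowest in VND3207 replicate 3, where their median deviation from the genes' means was -1.85 against 0.17 to 0.58 on the other arrays. The part of these markers in the members' values was not tested. In tissue RNA, fewer cells of a type and less RNA per cell cannot be told apart.

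**Figure D1:**
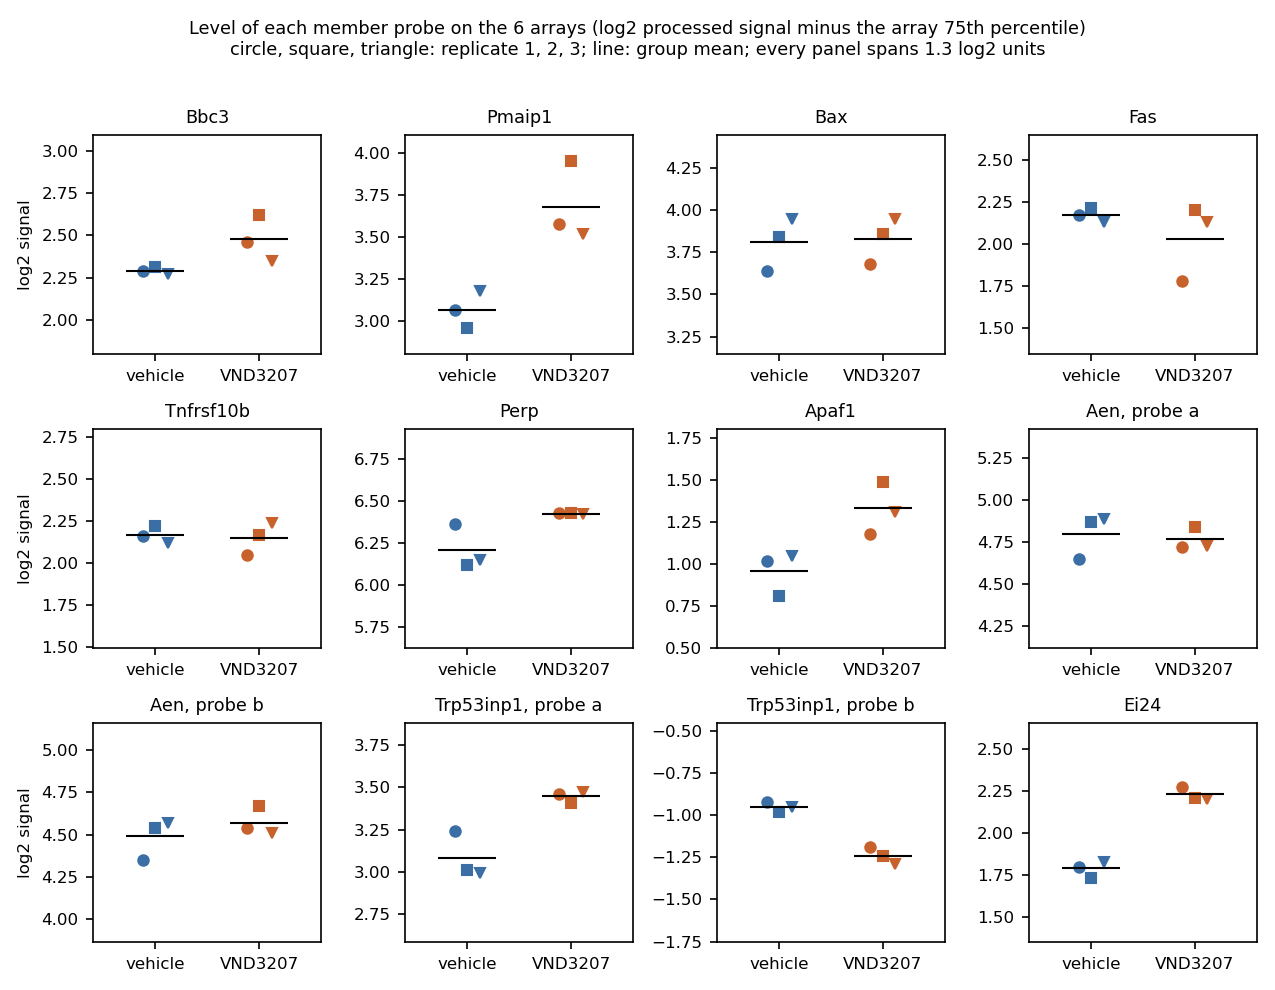
Log2 processed signal minus the array's 75th percentile (vertical axes, each spanning 1.3 log2 units) for the 12 member probes in the vehicle and VND3207 groups, with a symbol for each of the 3 mice and a line at each group mean. The groups are apart for Pmaip1 and Ei24, whose VND3207 values start at 3.52 and 2.20 against vehicle values of up to 3.18 and 1.83, whereas Bax, Fas, Tnfrsf10b and both Aen probes overlap.

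Pmaip1 encodes Noxa, a BH3-only protein that binds the protective protein Mcl1. Its level was 3.07, 2.96 and 3.18 in the vehicle mice and 3.58, 3.95 and 3.52 in the VND3207 mice. The lowest VND3207 mouse was above the highest vehicle mouse, and VND3207 replicate 2 was the highest of all. The mean rose from 3.07 ± 0.11 (SD, n = 3) to 3.68 ± 0.23, a difference of 0.61 ± 0.15 (SE, 95% interval 0.26 to 0.97, limma adjusted p = 0.0396). The call held without VND3207 replicate 3 (0.69, adjusted p = 0.0439) and was lost without any other array, with adjusted p up to 0.133 and differences from 0.48 to 0.66. It was also lost after quantile normalization (0.63, adjusted p = 0.061), after normexp background correction (0.56, adjusted p = 0.0654) and after the trend fit (0.44, adjusted p = 0.134).

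Bbc3, which encodes the BH3-only protein Puma, was measured at 2.29, 2.31 and 2.27 in the vehicle mice, a range narrower than that of the VND3207 mice at 2.46, 2.62 and 2.35. All VND3207 values were above all vehicle values, but the difference of 0.19 ± 0.11 had a 95% interval from -0.07 to 0.45 and did not pass (limma adjusted p = 0.335). It was 0.12 without VND3207 replicate 2 (adjusted p = 0.642) and 0.37 after the trend fit (adjusted p = 0.104). The probe lies on chromosome 7 from 16903403 to 16903462 (mm9, the build the files use). As in Pmaip1, replicate 2 was the highest of the VND3207 mice. Bax, the pore-forming effector on which the BH3-only proteins act, gave 3.64, 3.84 and 3.95 in the vehicle mice and 3.68, 3.86 and 3.95 with VND3207. The groups covered nearly the same range, and the difference was 0.02 with a 95% interval from -0.30 to 0.34 (limma adjusted p = 0.942). That interval leaves room for a change of about the size seen in Bbc3 in either direction.

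Ei24, a p53-induced gene whose product sits in the endoplasmic reticulum and binds Bcl2, had the smallest adjusted p of the members. Its level was 1.80, 1.73 and 1.83 in the vehicle mice and 2.27, 2.21 and 2.20 in the VND3207 mice. Both groups were tight, with SDs of 0.05 and 0.04, and the gap between them was wider than either. The difference was 0.44 ± 0.09 (SE, 95% interval 0.22 to 0.66, limma adjusted p = 0.0239). It was 0.41 to 0.46 with any array left out, and the adjusted p then lay between 0.0539 and 0.0907, so the call needed all 6 arrays. After quantile normalization Ei24 passed at 0.43 (adjusted p = 0.0381), and after the trend fit it was at 0.22 and did not pass (adjusted p = 0.194). The Ei24 probe lies on chromosome 9 at 36587287 to 36587346 (mm9, minus strand) and starts at base 1617 of its transcript. Before any scaling between arrays, Pmaip1 and Ei24 were the 2 members whose VND3207 signals all exceeded the vehicle signals, with Pmaip1 signals of 7340, 5370 and 7610 against 9190, 10400 and 7910 and Ei24 signals of 3040, 2290 and 2990 against 3710, 3130 and 3180.

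The p53 protein binds a DNA element made of a repeated 10-base unit, and the 250 bases before the transcription start were searched for an exact match to that unit, which reads the same on both strands. RefSeq start sites of 6 members (Bbc3, Bax, Fas, Apaf1, Aen and Ei24) were in the sequence table, with 9 start sites in all, on the GRCm38.p6 build. Pmaip1, Tnfrsf10b, Perp and Trp53inp1 were not among its entries. A match was present at 3 of the 9 starts, in Ei24, Bax and Aen, against 7.13% of all 32851 windows of the same length. The genes were listed as p53 targets, and some windows of Bbc3 and of Aen overlap, so the comparison is a description only. The windows are shown 5′ to 3′ up to the base before the start, with the matching unit in capitals, because Ei24 was called higher while Bax and Aen, which also carry the unit, were not.
Ei24, chr9:36797335-36797584, minus strand: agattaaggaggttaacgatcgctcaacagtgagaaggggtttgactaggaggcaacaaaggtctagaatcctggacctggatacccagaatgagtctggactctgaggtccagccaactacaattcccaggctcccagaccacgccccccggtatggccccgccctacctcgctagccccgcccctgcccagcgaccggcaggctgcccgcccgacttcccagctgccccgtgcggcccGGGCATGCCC
Bax, chr7:45466899-45467148, minus strand: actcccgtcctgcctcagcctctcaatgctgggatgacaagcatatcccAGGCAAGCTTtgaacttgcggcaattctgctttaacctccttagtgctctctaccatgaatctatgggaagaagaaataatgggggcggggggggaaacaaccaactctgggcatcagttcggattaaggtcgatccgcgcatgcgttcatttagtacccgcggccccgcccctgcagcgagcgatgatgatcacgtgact
Aen, chr7:78895808-78896057, plus strand: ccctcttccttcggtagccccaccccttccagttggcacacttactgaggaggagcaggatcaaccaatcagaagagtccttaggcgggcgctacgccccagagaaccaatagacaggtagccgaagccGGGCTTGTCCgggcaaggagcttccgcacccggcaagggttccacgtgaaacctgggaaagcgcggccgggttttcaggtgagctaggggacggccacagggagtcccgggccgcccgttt
The Ei24 unit ends at the base just before the start, whereas the Aen unit begins 121 bases and the Bax unit 201 bases before it. A match is a description of these letters and does not show that p53 was bound there.

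The death receptor genes gave values that overlapped between the groups. Fas, the receptor for Fas ligand, was at 2.17, 2.21 and 2.13 in the vehicle mice and at 1.78, 2.20 and 2.13 with VND3207. VND3207 replicate 1 was the low mouse, on both spots of the probe (1.76 and 1.79), and the other VND3207 mice lay within or at the edge of the vehicle range. The difference was -0.14 ± 0.14 with a 95% interval from -0.47 to 0.20 (limma adjusted p = 0.598), and without VND3207 replicate 1 it was -0.01. After the trend fit Fas was at -0.25 (adjusted p = 0.305). The Fas probe, the 1 member probe spotted 2 times on each array, showed spot differences of 0.03 to 0.10 within an array. Tnfrsf10b, the mouse receptor for the ligand TRAIL, was at 2.16, 2.22 and 2.12 in the vehicle mice and at 2.05, 2.17 and 2.24 with VND3207. The VND3207 mice spread beyond the vehicle mice at both ends, with a difference of -0.02 and a 95% interval from -0.26 to 0.23 (limma adjusted p = 0.942), and its sign turned to 0.01 without vehicle replicate 2 and to 0.03 without VND3207 replicate 1. After the trend fit it was at -0.17 (adjusted p = 0.315), with the VND3207 values of both receptors then below all vehicle values.

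Apaf1, the scaffold of the apoptosome, was at 1.02, 0.81 and 1.05 in the vehicle mice and at 1.18, 1.49 and 1.31 in the VND3207 mice. All VND3207 mice were above all vehicle mice, and the difference was 0.36 ± 0.13 with a 95% interval from 0.05 to 0.68. It did not pass (limma adjusted p = 0.128), and it was 0.23 after the trend fit (adjusted p = 0.28). Perp encodes a membrane protein that takes part in desmosomes of epithelia and was found as a p53 target in apoptosis. It was at 6.36, 6.12 and 6.15 in the vehicle mice and at 6.43, 6.43 and 6.42 with VND3207. The VND3207 mice were almost identical, and vehicle replicate 1 came close to them. The difference of 0.21 ± 0.11 had a 95% interval from -0.04 to 0.47 (limma adjusted p = 0.271), and it was 0.29 without vehicle replicate 1 (adjusted p = 0.167) and 0.34 after quantile normalization (adjusted p = 0.0961).

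**Figure D2:**
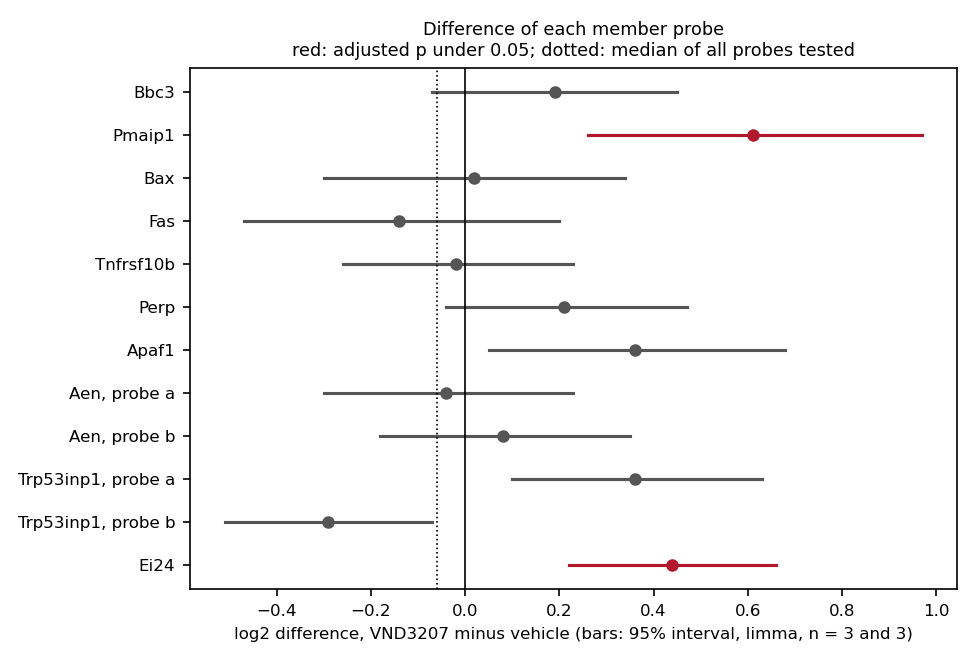
Log2 difference of VND3207 minus vehicle for each of the 12 member probes (horizontal axis), with 95% intervals from limma (n = 3 and 3), red where the adjusted p was under 0.05 and a dotted line at the median of all probes tested (-0.06). Pmaip1 (0.61) and Ei24 (0.44) are called, and the Trp53inp1 probes a and b lie on opposite sides of 0, at 0.36 and -0.29.

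Trp53inp1, which encodes a stress-induced protein that favours the apoptotic activity of p53, had 2 probes whose differences were of opposite sign. Probe a starts at base 5041 of the transcript and lies on chromosome 4 at 11101174 to 11101233 (mm9). It was at 3.24, 3.01 and 2.99 in the vehicle mice and at 3.46, 3.41 and 3.47 with VND3207. All VND3207 values were above all vehicle values, with a difference of 0.36 ± 0.11 (95% interval 0.10 to 0.63) that did not pass (limma adjusted p = 0.0819). Probe b starts at base 659 and lies at 11092530 to 11092589. It was at -0.92, -0.98 and -0.95 in the vehicle mice and at -1.19, -1.24 and -1.29 with VND3207. Here all VND3207 values were below all vehicle values, with a difference of -0.29 ± 0.09 (95% interval -0.51 to -0.07, limma adjusted p = 0.0902). Within each array, probe a exceeded probe b by 4.16, 3.99 and 3.95 in the vehicle mice and by 4.65, 4.65 and 4.75 in the VND3207 mice, a shift of 0.65 with an exact two-sided permutation p of 0.1, the smallest that 3 against 3 allows. The mean of both probes differed by 0.04 (limma adjusted p = 0.845), so the choice of probe decides the direction given for this gene. Probe a passed at 0.36 when the variance was fitted with an intensity trend (adjusted p = 0.0365). After the trend fit probe a was at 0.20 (adjusted p = 0.293) and probe b at -0.11 (adjusted p = 0.48). The probes also differed in level, as given above, and in GC content, 36.7% for probe a and 45% for probe b. The source of the opposite signs was not tested. The first 30 bases of each probe, 5′ to 3′, are shown because the 2 stretches come from distant parts of the transcript.
Trp53inp1 probe a, chr4:11101174-11101203: gtgtgtttatgggcacaatgttttctctca
Trp53inp1 probe b, chr4:11092530-11092559: aactcctgtcctggtctcagtgaggcgagt

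Aen, the gene of a nuclease that enhances apoptosis, also had 2 probes, and these overlap by 50 of their 60 bases on chromosome 7 (86053207 to 86053266 for probe a and 86053197 to 86053256 for probe b, mm9). The first 30 bases of each are given with the 20 that these stretches share in capitals.
Aen probe a, chr7:86053207-86053236: AAGTCAGCTTGCTCATAGTAccagaccatc
Aen probe b, chr7:86053197-86053226: ttactgggagAAGTCAGCTTGCTCATAGTA
Probe a was at 4.65, 4.87 and 4.89 in the vehicle mice and at 4.72, 4.84 and 4.73 with VND3207, and probe b was at 4.35, 4.54 and 4.57 against 4.54, 4.67 and 4.51. The groups overlapped on both probes. The differences were -0.04 (95% interval -0.30 to 0.23) and 0.08 (95% interval -0.18 to 0.35), with limma adjusted p of 0.868 and 0.695. Probe a turned to 0.02 after the trend fit. Although they share most of their sequence, the probes gave differences 0.12 apart, and their gap within an array was 0.30 to 0.33 in the vehicle mice and 0.17 to 0.23 in the VND3207 mice (exact two-sided permutation p = 0.1).

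Across the 10 genes, on the brightest probe of each, the mice of a group were not ranked alike. In the VND3207 group replicate 2 was the highest in 6 genes and replicate 1 the lowest in 5, and in the vehicle group replicate 3 was the highest in 5 genes and replicates 2 and 3 the lowest in 4 each. The median deviation of the 10 genes from their own means was -0.11, -0.14 and -0.10 in the vehicle mice and 0.06, 0.13 and 0.11 in the VND3207 mice. The members were also bright among the probes. When all probes were ranked by mean level into 10 equal classes, the median difference was -0.77 in the dimmest class, where 37.1% of probes were called lower, and 0.05, 0.03 and -0.06 in the 3 brightest classes. Of the 12 member probes 11 lay in those 3 classes, where 1.05%, 0.526% and 0.139% of all probes were called higher. Probe b of Trp53inp1 lay in class 6, whose median was 0.

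**Figure D3:**
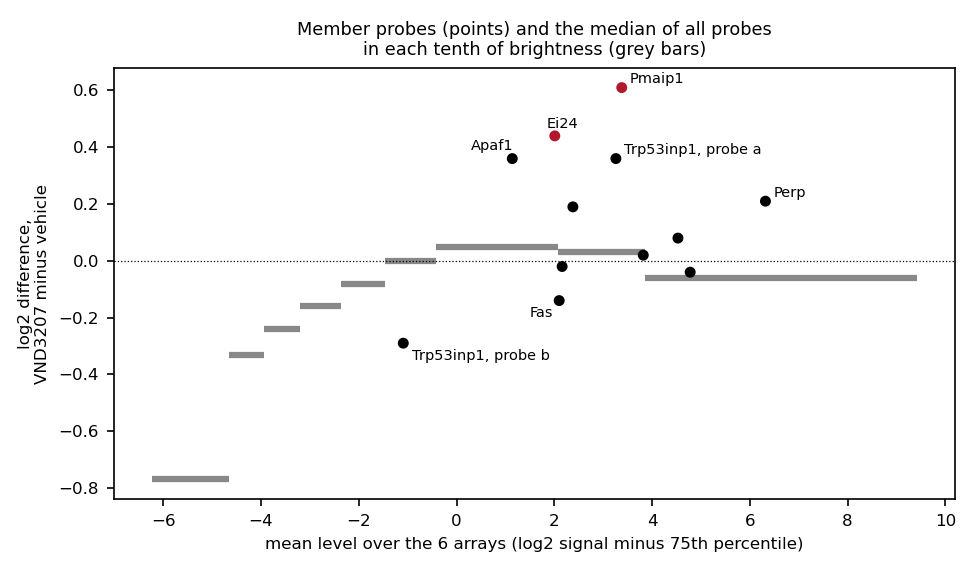
Log2 difference of VND3207 minus vehicle (vertical axis) against the mean level over the 6 arrays (horizontal axis, log2 signal minus the array's 75th percentile) for the 12 member probes (points, red where called), with grey bars at the median of all probes in each of 10 brightness classes. The bars fall from 0.05 to -0.77 towards the dim end, and the member probes other than Trp53inp1 probe b lie in the 3 brightest classes.

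The genes whose brightest probe followed a called member most closely over the 6 arrays were Ccdc22, Prpsap2 and Ptbp1 for Pmaip1 (Pearson r of 0.991, 0.99 and 0.99) and Hdac2, Vps50 and Otof for Ei24 (0.993, 0.991 and 0.991). These are the 3 highest of 15860 genes compared, they include the difference between the groups, and they are given as a description only.

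The other genes of the pathway were taken from lists. Among 28 p53 targets of arrest, feedback and repair, Trp53 itself included, 1 was called higher and 0 lower on the brightest probe. The median difference was 0.02. The gene called was Btg2, an antiproliferative target, at 2.48, 2.41 and 2.42 in the vehicle mice and 2.76, 2.87 and 2.91 with VND3207. Its groups were apart by more than the spread within either, with a difference of 0.41 ± 0.10 (limma adjusted p = 0.0356), and the call was lost without any of the 6 arrays (adjusted p up to 0.117) and after the trend fit (0.22, adjusted p = 0.172). Cdkn1a, which encodes p21, a brake on cyclin-dependent kinases, was at 4.71, 4.74 and 4.59 in the vehicle mice and 4.81, 4.67 and 4.78 with VND3207. Mdm2, the ubiquitin ligase that limits p53, was at 4.54, 4.79 and 4.54 against 4.61, 4.64 and 4.75. Both overlapped between the groups, with differences of 0.07 (limma adjusted p = 0.708) and 0.04 (adjusted p = 0.859), and the Mdm2 value turned to -0.04 with normexp and to -0.12 with the trend fit. The most negative difference of the list was that of Sfn, a 14-3-3 protein gene, at -0.46 (limma adjusted p = 0.388), which was -0.78 without vehicle replicate 3 (adjusted p = 0.05), -0.28 without vehicle replicate 1 (adjusted p = 0.637) and -0.22 after the trend fit (adjusted p = 0.663). Trp53 was at -0.44 (limma adjusted p = 0.0879). Quantile normalization put Trp53 at -0.23 and the trend fit at -0.17, and it passed without VND3207 replicate 2 at -0.56 (adjusted p = 0.0424). Outside the brightest probes, a further probe of Eda2r, also in this list, was called lower (limma adjusted p = 0.033). That probe was not well above background in any VND3207 mouse. It entered the test through the vehicle group alone, so no difference is given.

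Downstream and parallel genes gave few calls. Of 12 death receptor ligands, adaptors and inhibitors, 0 passed in either direction, 9 were above 0 and the median was 0.11. The extremes were Faim2, an inhibitor of Fas signalling, at 0.45 (limma adjusted p = 0.105) and Tnf, the cytokine gene, at -0.28 (adjusted p = 0.164), and Tnf turned to 0.04 after quantile normalization and 0.27 after the trend fit. Both were dim, with vehicle and VND3207 means of -3.68 and -3.23 for Faim2 and -3.60 and -3.88 for Tnf. They lay in brightness class 3, where the median difference of all probes was -0.24. Faim2 passed after quantile normalization (0.76, adjusted p = 0.0305), in the deposited table (0.75, adjusted p = 0.0307) and with normexp (0.39, adjusted p = 0.0457). Of 13 Bcl2 family partners 1 was called lower, 0 higher, and the median was -0.06. The gene called was the BH3-only gene Hrk (limma adjusted p = 0.00331), whose probe was not well above background in any VND3207 mouse and entered the test through the vehicle group alone. Its vehicle mean of -5.10 was itself under the floor of the VND3207 arrays, -4.90 on average, so neither a difference nor a fold is given. Its adjusted p was 0.347 with normexp and 0.14 with the trend fit. The largest positive difference was that of Bmf, a BH3-only gene, at 0.72 ± 0.25 (limma adjusted p = 0.117), with -0.63, -0.94 and -0.03 in the vehicle mice and 0.24, 0.32 and -0.01 with VND3207. It passed without vehicle replicate 3 at 0.97 (adjusted p = 0.0286). Without any other array it did not pass, with differences down to 0.52 and limma adjusted p up to 0.28. Of 16 apoptosome and caspase genes 0 passed on their brightest probe, with a median of 0.01. The largest positive difference was that of Dffa, the inhibitor of the caspase-activated DNase, at 0.41 (limma adjusted p = 0.0535). That probe passed after quantile normalization (0.50, adjusted p = 0.0341), in the deposited table (0.49, adjusted p = 0.0345), with 1 probe per gene name (0.41, adjusted p = 0.0496) and with array weights (0.44, adjusted p = 0.0315). The 2 other probes of Dffa were at 0.07 and -0.49, and the last of these passed as lower (limma adjusted p = 0.0317). The probes of Dffa thus did not point the same way, and their mean was at 0.00.

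**Figure D4:**
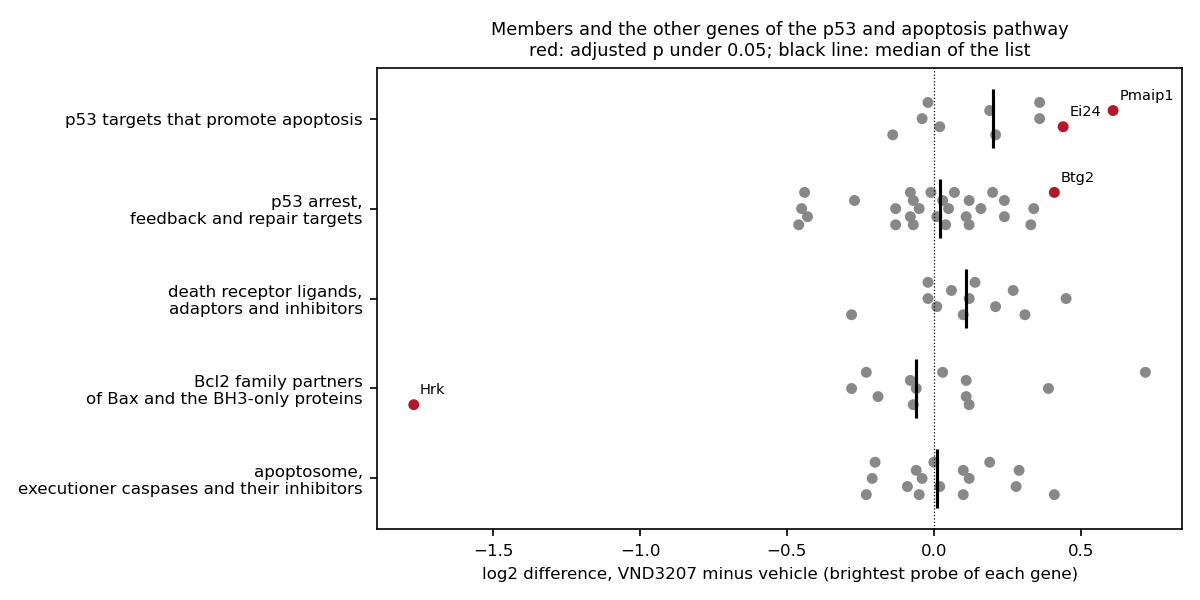
Log2 difference of VND3207 minus vehicle (horizontal axis) for the brightest probe of each gene in the 10 members and in the lists of p53 arrest, feedback and repair targets (28 genes), death receptor ligands, adaptors and inhibitors (12), Bcl2 family partners (13) and apoptosome and caspase genes (16), with black lines at the list medians and red points where the adjusted p was under 0.05. The medians are 0.20, 0.02, 0.11, -0.06 and 0.01, and the red points are Pmaip1, Ei24, Btg2 and Hrk, the last of which was not well above background with VND3207, so that its point is not a measured difference.

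**Figure D5:**
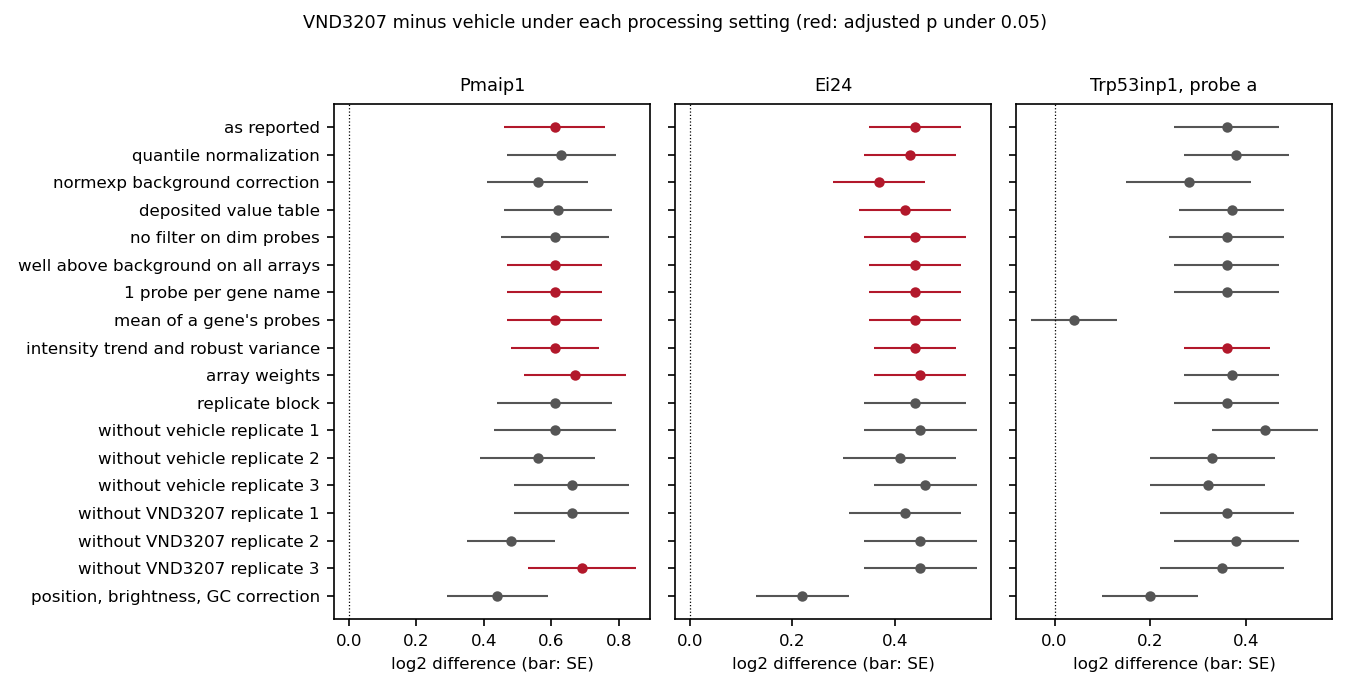
Log2 difference of VND3207 minus vehicle with its SE (horizontal axes) for Pmaip1, Ei24 and probe a of Trp53inp1 under each processing setting (vertical axis), red where the adjusted p was under 0.05. Pmaip1 stays between 0.44 and 0.69 and Ei24 between 0.22 and 0.46, and probe a of Trp53inp1 falls to 0.04 where both probes of the gene are averaged. The trend fit is the setting drawn as a correction for position, brightness and GC.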

How the data were processed

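Deposited intensity values of 6 arrays (3 vehicle and 3 VND3207 mice) were used. Per the file headers they come from Agilent Feature Extraction, version 10.7.1.1, whose processed signal is detrended within the array and background subtracted, with no scaling between arrays. The authors also deposited a table of log2 values, with a median of 6.05 and a 75th percentile of 9.41 in each of the 6 columns. How it was made is not given in the sources used here, and its columns correlated with the processed signals (log2) of the matching arrays at r of 0.997 to 1. It gave 919 calls higher and 3175 lower, close to the 931 and 3235 after quantile normalization. A result seen under both settings is therefore not seen independently. Its direction was that of the scanner files, and 0 value columns were without a sample.

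Control spots and spots marked as outliers were left out, spots of a probe were averaged, and log2 processed signals had each array's 75th percentile over 59305 non-control spots subtracted. A probe was tested, each on its own, if 3 or more of the 6 arrays had it well above background, with limma 3.58.1 in R 4.3.3 (lmFit, then eBayes, with 2-sided tests and a term for group alone) and Benjamini-Hochberg adjustment over all 36096 at a threshold of 0.05. Where a gene had several probes, the brightest on average stands for it. Errors written as ± after a difference are moderated SEs. No spot was saturated. The number of arrays limits the precision. The members and gene lists were chosen with earlier results of these data known, so they are not independent of them. Named outside the members were genes past the threshold (at most 6 a pathway list and 3 a marker list), the largest difference in each direction of a pathway list, and Trp53, Cdkn1a and Mdm2, and 1 gene under this rule is not reported here. The 17 alternatives comprised other scalings, background corrections, filters, probe summaries, variance models, a block for the replicate number, leaving out each array, and the trend fit, which takes from each array smooth trends with spot position, brightness and GC (mgcv 1.9-3). A count without scaling was added after the data were seen. No slide block was fitted, since each slide holds 1 group. Same-numbered arrays of the groups deviated with r of 0.13, -0.11 and -0.05 and were not treated as pairs. Promoter windows came from RefSeq on GRCm38.p6, probe positions from the files on mm9.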

Additional observations from a re-analysis of the deposited data

How the results depend on the processing

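The count of 2 members called higher was 3 with an intensity trend and robust variance (probe a of Trp53inp1 added), 1 with quantile normalization, normexp, the deposited table and no filter on dim probes, 0 with the replicate block and with the trend fit, and 0 to 1 with an array left out. The settings did not all test the same number of features, which was 36096 or close to it where none is given. Over all features, calls higher numbered 334 and became 931 with quantile normalization, 919 with the deposited table, 662 of 55680 without a filter, 214 of 26026 with the mean of a gene's probes, 143 with the replicate block, 1007 with the trend fit and 124 to 287 with an array left out. Calls lower numbered 5257 and became 3235, 2832 and 3175 with quantile normalization, normexp and the deposited table, 2923 of 30187 where all arrays had to be above background, 3408 with the replicate block, 2053 with the trend fit and 2960 to 5069 with an array left out. The replicate numbers share no known source, and the block left Pmaip1 at 0.61 (limma adjusted p = 0.12) and Ei24 at 0.44 (adjusted p = 0.0824). On the brightest probe of each gene, the groups of 6 members were apart upward. This count was 4 with normexp, 5 each with quantile normalization, the deposited table and the trend fit, and 2 without scaling. Apart downward were 0, but 2 with the trend fit (Fas and Tnfrsf10b) and 1 without scaling (Fas). Pmaip1 and Ei24 were apart upward in all 6 of these counts.

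The members' median of 0.20 was 0.26 with quantile normalization and the deposited table, 0.11 with the mean of a gene's probes and 0.16 to 0.24 with an array left out. The arrest list moved to 0.08 with quantile normalization and the deposited table, 0.04 with all arrays above background and with the trend fit, and 0.01 to 0.06 with an array left out. The Bcl2 list moved to 0.03 with the mean of a gene's probes, 0.07 with the trend fit and -0.08 to 0.09 with an array left out, and the death receptor and caspase lists to 0.01 to 0.15 and -0.04 to 0.12. Signs of differences that did not pass turned for Bax (-0.01 with normexp, 0.00 with array weights and with the trend fit, -0.06 to 0.10 with an array left out), Aen probe a (0.02 with the mean of the probes and with the trend fit, -0.11 to 0.00 with an array left out), Tnfrsf10b (-0.06 to 0.03 with an array left out), Mdm2 (-0.04 with normexp, -0.12 with the trend fit, 0.00 to 0.12 with an array left out), Cdkn1a and Dffa (0.00 with the mean of the probes) and Tnf (0.04 with quantile normalization and the deposited table, 0.27 with the trend fit). Itln1, called at -0.41, was at 0.01 with quantile normalization and 0.00 with the deposited table. The causes were not tested.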
